A study of Homo sapiens with 4 samples.

Results

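NRF2, the protein made from NFE2L2, is the transcription factor through which cells raise their antioxidant and detoxifying enzymes, and 9 genes of this pathway were followed in AGS cells after knockdown of MFAP2. The 9 genes were picked by name as the rows for NFE2L2, its inhibitor KEAP1, and the target genes NQO1, GCLC, GCLM, TXNRD1, HMOX1, SLC7A11 and AKR1C1, and all 9 were found among the 47251 genes of the table. AGS is an established human gastric adenocarcinoma line. In 2 libraries the cells carried an shRNA against MFAP2 (sh-MFAP2, genotype MFAP2 silencing), and in the other 2 libraries they carried a control shRNA (sh-control, genotype control). MFAP2 encodes a protein of extracellular microfibrils, and the comparison asked how gene expression changed after its knockdown. According to the study's methods, cells were infected with lentivirus carrying the MFAP2 shRNA or a scrambled control shRNA and selected with puromycin, so that both groups were infected and drug-selected, whereas the labels speak of transfection. A single hairpin in a single cell line was sequenced, and nothing in the labels says whether the 2 libraries of a group came from separate cultures, so the p-values given here measure only the spread between these libraries.

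In unstressed cells KEAP1 holds NRF2 in the cytoplasm and hands it to the CUL3 ubiquitin ligase, and NRF2 protein is degraded soon after it is made. Oxidants and electrophiles modify cysteines of KEAP1, NRF2 then builds up in the nucleus, pairs with a small MAF protein and binds antioxidant response elements of its target genes. Because this switch works on the protein, the activity of NRF2 can change without a change in NFE2L2 mRNA, and mRNA levels of target genes are the usual readout of it. Many carcinomas carry a permanently active pathway.

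The libraries were compared on FPKM, fragments scaled to the length of the transcript and to the size of the library. Many low values of each library lay on steps that implied 27300000 to 37300000 fragments per library. A finer step also fitted, so these depths are approximate and may be too low. The epithelial genes EPCAM (193 to 210 FPKM), KRT8 (690 to 803), KRT18 (501 to 774) and KRT19 (217 to 303) were high in all 4 libraries. By contrast, CLDN4 was at 47.1 FPKM in sh-MFAP2 replicate 1 and at 0.0151 to 0.551 in the others. The epithelial gene CLDN7 was lower in both knockdown libraries than in both controls. Its mean was 30.1 FPKM in sh-MFAP2 and 47.2 in control. Of 12 markers of other cell types, PTPRC, CD3E, PECAM1, VWF, CDH5, DCN, COL1A2 and PDGFRB were at or below 0.0298 FPKM throughout, and 4 were not. The immune list (4 genes) summed to 88.7 and 582 FPKM in sh-MFAP2 and to 97.1 and 376 in control, nearly all of it LYZ, and its gene CD68 was at 3.13 and 3.12 in sh-MFAP2 and at 7.85 and 7.20 in control. The mesenchymal list (5 genes) summed to 5.34 and 4.96 in sh-MFAP2 and to 6.71 and 6.85 in control, with COL1A1 lower (2.27 and 2.07 against 4.36 and 4.92) and VIM higher (3.06 and 2.87 against 2.32 and 1.91) in both knockdown libraries. The part of these genes in the results below was not tested. MFAP2 itself had a value of 0 in each knockdown library and of 0.0116 and 0.0138 FPKM in the controls, at most 1.5 implied fragments. So few fragments cannot show a knockdown, so the target of the hairpin does not serve as a check on the labels. The paper reports that it checked the knockdown by western blot and quantitative PCR.

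Of the 9 genes, 7 were tested, and none of these was called as differentially expressed between sh-MFAP2 and control cells. The test took in the 9873 genes whose FPKM averaged 1 or more across libraries, 7 of the 9 members among them. SLC7A11 and AKR1C1 averaged less than that. A differentially expressed gene (DEG) had p under 0.01 and a Benjamini-Hochberg adjusted p under 0.05 in limma. By that rule 0 of the 7 members were DEGs, against 27 of all genes tested (0.273%), and limma was the only tool run. With an unadjusted p under 0.05 there was 1 member, TXNRD1, which was lower in sh-MFAP2, where 8.41% of all genes tested were lower by the same measure. In 5 of the 7 members (KEAP1, NQO1, GCLC, TXNRD1 and HMOX1) both sh-MFAP2 libraries lay below both controls, which 31.4% of all genes tested did. In GCLM the mean was lower with overlapping groups, and in NFE2L2 it was higher with overlapping groups. The median difference of the 7 members on the log2(FPKM + 1) scale was -0.25, beside -0.05 for all genes tested. As the RNA came from whole cultures, fewer cells expressing a gene and less of its RNA per cell cannot be told apart.

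**Figure D1:**
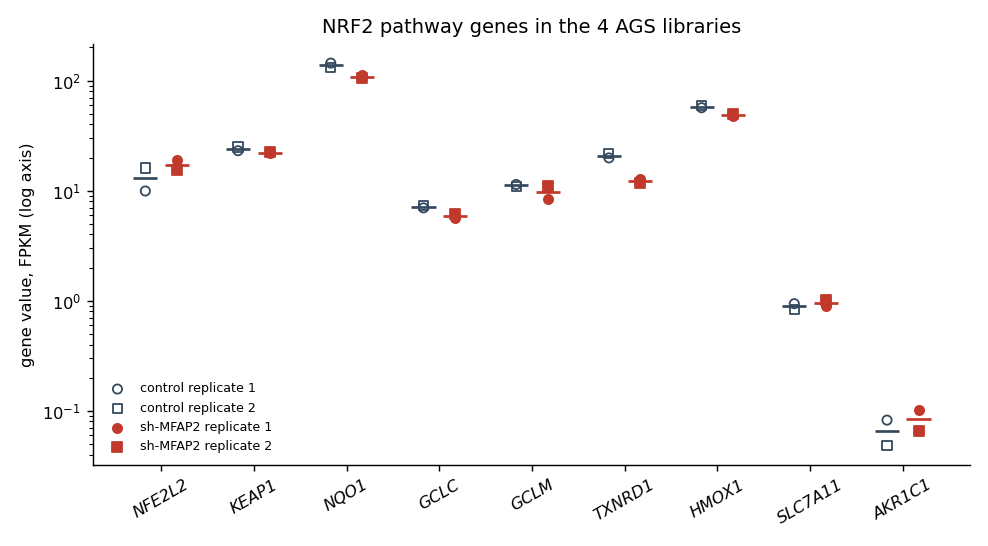
Gene value of each of the 9 NRF2 pathway genes in FPKM (log axis) in the 4 libraries, with open symbols for control, filled symbols for sh-MFAP2 and a line at each group's mean. The groups are apart in KEAP1, NQO1, GCLC, TXNRD1 and HMOX1, each lower in sh-MFAP2, and values range from about 0.0484 FPKM (AKR1C1) to 144 FPKM (NQO1).

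The gene value is the length-weighted sum of the transcripts over 1 gene length, so levels of different genes were compared on the sum of transcript FPKM instead. NQO1 stood highest, with a mean of 184 FPKM over the 4 libraries on that scale, and HMOX1 followed at 70.9. NFE2L2 (33.6), TXNRD1 (31.9) and KEAP1 (31.6) came next and their libraries overlapped, so these 3 could not be ordered over the 4 libraries. Within groups, TXNRD1 lay above KEAP1 in both controls (41.2 and 41.7 against 31.2 and 35.2). In both sh-MFAP2 libraries it lay below KEAP1 (22.9 and 21.6 against 29.6 and 30.5). GCLC (14.2) and GCLM (11.9) also overlapped, although GCLC was the higher of the pair in each library. SLC7A11 stood at 0.917 FPKM and AKR1C1 at 0.155. Among these 9 genes, therefore, the quinone reductase and heme oxygenase transcripts were abundant in AGS cells of both groups, while the transcripts of the cystine transporter subunit and of the aldo-keto reductase were scarce.

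Antioxidant response elements are read by NRF2 and small MAF proteins as TGACNNNGC, and this motif was searched on both strands in the RefSeq promoter windows of GRCh38.p14, each 250 bases before to 50 bases after an annotated start. Windows were matched for 7 of the 9 members (not HMOX1 and SLC7A11), with 10 windows in all. KEAP1, GCLM and TXNRD1 held a match, 3 of 7 genes (42.9%), beside 16.1% of all 27305 genes with a window. Of 64 other known NRF2 target genes, 49 were matched, and 19 of these held the motif (38.8%). No match lay in the windows of NFE2L2, NQO1, GCLC and AKR1C1, which says only that these letters are not in those windows. The AP-1 motif TGANTCA, which can share letters with the element, was in none of the 10 member windows. A stretch of each of the 3 genes is shown because they carry a closely similar run of letters. They are given 5′ to 3′ on the strand of the gene, with 1 match in capitals. KEAP1 held 2 matches in its window and TXNRD1 held 3 over its windows, of which 1 each is shown, and the other KEAP1 match, TGACACGGC on the strand of the gene, is left in lower case in the stretch below. In the 3 matches in capitals the motif reads on the opposite strand, so that the capitals are its reverse complement.
KEAP1, chr19:10502768-10502828, minus strand, match 31 bases before the start: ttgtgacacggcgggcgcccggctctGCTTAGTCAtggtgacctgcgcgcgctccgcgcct
GCLM, chr1:93909430-93909490, minus strand, match 34 bases before the start: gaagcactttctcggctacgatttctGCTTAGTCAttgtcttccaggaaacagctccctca
TXNRD1, chr12:104286904-104286964, plus strand, match 102 bases before the second RefSeq start: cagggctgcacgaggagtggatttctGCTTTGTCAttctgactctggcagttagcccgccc
KEAP1 and GCLM shared the same 9 letters. A match is a description of the sequence and not evidence of binding.

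The regulator NFE2L2 (ENSG00000116044, chr2:177227595-177392697, minus strand, GRCh38) was measured at 19.1 and 15.3 FPKM after knockdown and at 9.93 and 16.1 FPKM in control. Control replicate 1 was the lowest of the 4, and control replicate 2 lay between the 2 sh-MFAP2 libraries. The difference was 0.41 on the log2(FPKM + 1) scale (SE 0.28, n = 2 against 2, limma adjusted p = 0.565), with an interval from -0.38 to 1.19 that spans a decrease as well as a doubling. Without control replicate 1 the difference was 0.09, and without control replicate 2 it was 0.73. Its spread between libraries (pooled SD 0.355 on that scale) was larger than that of 83.3% of the genes tested. With 2 libraries against 2, exact permutation of the labels gives no p below 0.333, so no such p is given for any member.

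The NFE2L2 transcripts to which the reads were assigned also varied between libraries. ENST00000397062 stood at 33.8 and 15.4 FPKM after knockdown and at 17.0 and 16.4 FPKM in control. ENST00000397063 stood at 3.84 and 14.6 FPKM after knockdown and at 3.15 and 15.6 FPKM in control. The former therefore made up 81.9% and 77.4% of NFE2L2 transcript FPKM in the replicate 1 libraries of sh-MFAP2 and control and 44.3% and 45.3% in the replicate 2 libraries, so this split followed the replicate number and not the hairpin. The remaining transcript above 1 FPKM, ENST00000446151, stood at 2.83 and 3.27 FPKM after knockdown and at 0.670 and 2.69 FPKM in control. The 3 transcripts share most of their sequence, and their values are the authors' estimates of how shared reads divide. Exons of NFE2L2 overlap those of AGPS on the other strand (13.2 and 14.8 FPKM in sh-MFAP2, 18.3 and 18.8 in control), and since strand-specific counting is not stated, reads of the overlap cannot be told apart.

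Among all genes tested, the 3 with the pattern over the 4 libraries closest to that of NFE2L2 were ZNF224, CTDSP1 and GPRIN1. Likeness was the Euclidean distance between log2(FPKM + 1) values centred on each gene's mean over the 4 libraries. ZNF224 (distance 0.105) was at 3.21 and 2.74 FPKM after knockdown and at 1.35 and 2.58 in control. CTDSP1 lay at a distance of 0.114 and GPRIN1 at 0.115. All 3 shared the low value in control replicate 1, which follows from choosing them by likeness to NFE2L2.

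KEAP1 (ENSG00000079999, chr19:10486120-10503741, minus strand), the adaptor that presents NRF2 for degradation, was among the steadiest members. It was measured at 21.9 and 22.5 FPKM after knockdown and at 23.1 and 24.97 FPKM in control. Both knockdown libraries lay just below both controls, with a difference in means of -7.69%. The difference was -0.11 (SE 0.11, interval -0.41 to 0.19, limma adjusted p = 0.668), and under scaling by the median of ratios it was -0.04. The 2 KEAP1 transcripts above 1 FPKM kept their proportions in 3 libraries and not in the fourth. ENST00000171111 was at 19.5 and 19.9 FPKM after knockdown and at 20.5 and 11.1 in control, while ENST00000393623 was at 8.94 and 9.22 after knockdown and at 9.42 and 22.5 in control. In control replicate 2 the latter thus made up 64.0% of KEAP1 transcript FPKM. It begins at position 10502896, within 200 bases of the RefSeq start with the motif above. As the gene is on the minus strand, the stretch shown above lies downstream of the start of this transcript.

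TXNRD1 (ENSG00000198431, chr12:104215779-104350305, plus strand) encodes the cytosolic thioredoxin reductase, a selenoprotein that keeps thioredoxin reduced at the expense of NADPH, and it showed the largest difference of the 7 members tested. It was measured at 12.7 and 11.8 FPKM after knockdown and at 19.8 and 21.7 FPKM in control. The groups were well apart, with a difference in means of -41.1%. The difference was -0.72 (SE 0.11, interval -1.04 to -0.39, limma adjusted p = 0.256). It ranked 151 of 9873 genes by p, so it did not pass the adjusted threshold. The 4 libraries held 2050 to 5174 implied TXNRD1 fragments, and the difference lay between -0.87 and -0.65 under every alternative tried, with limma adjusted p from 0.174 to 0.859.

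The transcripts of TXNRD1 varied more than the gene. Of the 23 listed, 10 reached 1 FPKM in at least 1 library, and 3 different ones led in the 4 libraries. ENST00000503506 led in sh-MFAP2, at 9.47 and 10.5 FPKM against 3.78 and 1.996 in control. ENST00000526691 was at 7.75 and 6.04 in sh-MFAP2 and led control replicate 1 at 14.8, with 7.25 in control replicate 2. ENST00000526390 was at 0.290 FPKM or below in 3 libraries and at 19.2 in control replicate 2, where it made up 46.0% of the TXNRD1 sum. ENST00000529546 was at 0.5 and 0.177 FPKM after knockdown and at 6.11 and 3.26 in control. ENST00000503506 was thus higher in both knockdown libraries while the gene as a whole was lower, and ENST00000529546 was lower in both. The other 6 were ENST00000354940, ENST00000397736, ENST00000526580, ENST00000531691, ENST00000526950 and ENST00000524698, which ranged from 0 to 4.07 FPKM. Among 7211 genes with at least 2 transcripts and a mean sum of at least 5 FPKM, 78.7% kept the same leading transcript in all 4 libraries, as TXNRD1 and KEAP1 did not. The transcripts were not tested.

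Summed by start site, TXNRD1 transcripts from the first RefSeq start (position 104215779 of chromosome 12) were at or below 0.00856 FPKM in every library, so next to no transcript was assigned to this start. In all, 9 transcripts begin within 200 bases of the second RefSeq start (position 104287032). They summed to 10.4 and 8.68 FPKM in sh-MFAP2 and to 26.7 and 33.1 FPKM in control. Those that begin elsewhere summed to 12.5 and 12.9 in sh-MFAP2 and to 14.5 and 8.57 in control. The groups were apart for the former and overlapped for the latter. ENST00000503506 begins only a short way upstream, at position 104286682, so the division rests on first exons and on how shared reads were assigned. The motif shown above lies before the second RefSeq start, but downstream of the starts of ENST00000503506 and ENST00000526691 (position 104286881).

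**Figure D2:**
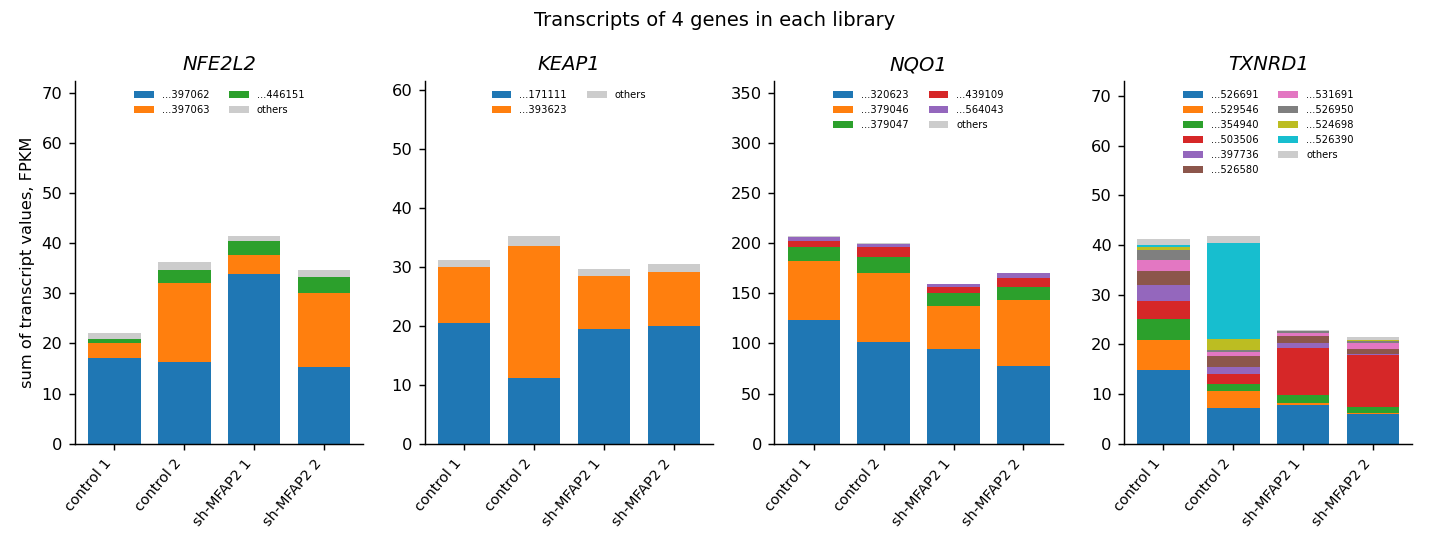
Stacked transcript values in FPKM of NFE2L2, KEAP1, NQO1 and TXNRD1 in each library, with transcripts of at least 1 FPKM in any library in colour (last 6 digits of the identifier) and the rest in light grey. The NFE2L2 split follows the replicate number, KEAP1 shifts in control replicate 2 alone, and the TXNRD1 columns of control (41.2 and 41.7) stand above those of sh-MFAP2 (22.9 and 21.6) with a different make-up.

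NQO1 (ENSG00000181019, chr16:69706996-69726951, minus strand), the quinone reductase most often used as a readout of NRF2, was measured at 112 and 105 FPKM after knockdown and at 144 and 130 FPKM in control. Both knockdown libraries lay below both controls, with a difference in means of -20.9%. The difference was -0.33 (SE 0.12, interval -0.67 to 0.002, limma adjusted p = 0.406). It was the deepest of the members, with 9330 to 15825 implied fragments. Its leading transcript was ENST00000320623 in all 4 libraries, at 94.7 and 77.3 FPKM after knockdown and at 123.8 and 101.2 in control. A shorter transcript, ENST00000379046, overlapped between groups at 43.0 and 66.4 in sh-MFAP2 and 58.4 and 69.0 in control. ENST00000379047 lay between 12.3 and 16.3 FPKM, and ENST00000439109 and ENST00000564043 between 3.02 and 9.74.

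GCLC and GCLM encode the catalytic and the modifier subunit of glutamate-cysteine ligase, the enzyme of the first and rate-limiting step of glutathione synthesis. GCLC (ENSG00000001084, chr6:53497341-53616970, minus strand) was measured at 5.61 and 6.12 FPKM after knockdown and at 6.97 and 7.30 in control. It was lower in both knockdown libraries, with a difference of -0.25 (SE 0.11, interval -0.55 to 0.06, limma adjusted p = 0.438). GCLM (ENSG00000023909, chr1:93885205-93909456, minus strand) was measured at 8.48 and 11.1 FPKM after knockdown and at 11.4 and 10.9 in control. Only sh-MFAP2 replicate 1 stood below the rest, and the difference of -0.18 (SE 0.16, interval -0.64 to 0.28, limma adjusted p = 0.636) was -0.01 without that library and -0.36 without sh-MFAP2 replicate 2. Each gene was carried by 1 main transcript, ENST00000229416 for GCLC (88.6% to 95.4% of its transcript FPKM) and ENST00000370238 for GCLM. The minor GCLC transcript ENST00000616923 was at 0.236 to 1.055 FPKM.

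HMOX1 (ENSG00000100292, chr22:35380361-35394214, plus strand) encodes the inducible heme oxygenase, which opens the heme ring and is held down by the repressor BACH1. It was measured at 47.5 and 49.9 FPKM after knockdown and at 56.7 and 59.4 in control. The libraries of each group lay close together, with a difference in means of -16.1%. The difference was -0.25 (SE 0.11, interval -0.55 to 0.05, limma adjusted p = 0.436). Its own spread (pooled SD 0.049) exceeded that of 10.3% of the genes tested, and limma moves so small a spread toward the value common to genes of like level. Nearly all HMOX1 signal, 98.7% to 99.2%, came from ENST00000216117.

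SLC7A11 (ENSG00000151012, chr4:138164097-138242349, minus strand), the xCT subunit that imports cystine for glutathione synthesis, was measured at 0.887 and 1.01 FPKM after knockdown and at 0.941 and 0.833 in control. The groups overlapped, and the difference of 0.05 on the log2(FPKM + 1) scale was not tested because the gene fell below the filter. With every gene above 0 admitted, its limma adjusted p was 0.904. It has a single listed transcript, ENST00000280612, with 259 to 300 implied fragments per library, and at so low a level the pseudocount of 1 makes a fold change look smaller than it is.

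AKR1C1 (ENSG00000187134, chr10:4963253-4983283, plus strand), an aldo-keto reductase that inactivates progesterone and is strongly induced by NRF2 in many carcinomas, was near the floor. It was measured at 0.102 and 0.0662 FPKM after knockdown and at 0.0824 and 0.0484 in control, from 15.9 to 27.4 implied fragments. The groups overlapped, and a difference was not detectable at this depth. Summed over transcripts, its mean was lower in sh-MFAP2 (0.132 against 0.178 FPKM), opposite in direction to the gene value. Its coding sequence is 98.0% identical to that of AKR1C2, 91.9% to AKR1C3 and 88.5% to AKR1C4 over 972 bases, so reads could be split among them and the value is uncertain. The copies were low as well, with AKR1C2 at 0.119 and 0.121 FPKM in sh-MFAP2 and 0.110 and 0.0879 in control. AKR1C3 was at 0.494 and 0.492 after knockdown and at 0.315 and 0.439 in control, and AKR1C4 was listed at 0 in both controls.

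**Figure D3:**
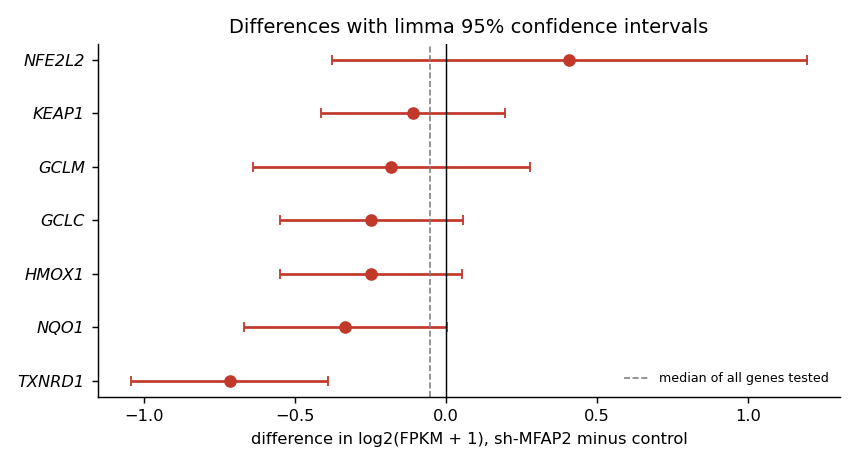
Difference between sh-MFAP2 and control in log2(FPKM + 1) for the 7 members tested, with limma 95% intervals and a dashed line at the median of all genes tested (-0.05). The interval of TXNRD1 (-1.04 to -0.39) lies wholly below 0, that of NQO1 just reaches 0, and that of NFE2L2 is the widest.

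The lists of related genes placed the members in their pathway. Of 28 NRF2 regulators and partners, 25 were tested and 0 were DEGs in limma. In this list 4 genes had an unadjusted p under 0.05, all lower in sh-MFAP2, and 11 lay lower and 2 higher in both knockdown libraries. Of all genes tested, 8.41% were lower and 3.89% higher by the former measure, and 31.4% lower and 17.5% higher by the latter. The median difference was -0.16, against -0.05 for all genes tested. PGAM5, a mitochondrial phosphatase that binds KEAP1, was at 5.18 and 5.82 FPKM after knockdown and at 13.1 and 12.4 in control (difference -1.08, limma adjusted p = 0.137). BACH1, the repressor that competes with NRF2 for its sites, was at 1.17 and 1.38 FPKM after knockdown and at 3.57 and 3.51 in control (difference -0.999, limma adjusted p = 0.145). The BACH1 mean in sh-MFAP2 was thus 0.36 times that of control, while HMOX1, on which it acts as a repressor, was also lower in both knockdown libraries. AMER1 and PALB2, both KEAP1-binding proteins, had differences of -0.34 and -0.29, and BRCA1 had -0.35, with limma adjusted p of 0.399 to 0.415.

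The other named partners were CUL3, MAFG and SQSTM1. CUL3, the scaffold of the ligase that KEAP1 serves, was at 10.1 and 10.7 FPKM after knockdown and at 11.9 and 11.4 in control (difference -0.15, limma adjusted p = 0.568). MAFG, a small MAF partner of NRF2, had a difference of -0.16 with overlapping groups. SQSTM1, the autophagy receptor p62 that sequesters KEAP1 and is itself an NRF2 target, was at 50.1 and 68.4 FPKM after knockdown and at 64.5 and 48.2 in control. Its difference of 0.07 (limma adjusted p = 0.909) turned negative without sh-MFAP2 replicate 2 or without control replicate 2.

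Of 64 other NRF2 target genes, 46 were tested and 0 were DEGs in limma, with 4 lower and 4 higher at an unadjusted p under 0.05. Here 24 means were lower and 22 higher in sh-MFAP2, 16 genes were lower and 10 higher in both knockdown libraries, and the median difference of -0.01 became 0.05 under scaling by the median of ratios. Of all genes tested 58% had a lower and 42% a higher mean, and 31.4% and 17.5% had groups apart in these directions. At an unadjusted p under 0.05, 8.41% of all genes tested were lower and 3.89% higher. TRIM16L was at 4.91 and 5.29 FPKM after knockdown and at 11.2 and 12.0 in control (difference -1.04, limma adjusted p = 0.135), and it shares sequence with TRIM16, so its value is uncertain. ALDH3A1, an aldehyde dehydrogenase, stood the other way at 13.6 and 14.4 FPKM in sh-MFAP2 and 7.63 and 7.66 in control (difference 0.79, limma adjusted p = 0.187). UGDH, which makes the UDP-glucuronate used in glucuronidation, was at 14.5 and 10.8 FPKM after knockdown and at 22.0 and 21.3 in control. PTGR1, a reductase of reactive alkenals, was at 21.0 and 20.6 FPKM after knockdown and at 26.7 and 27.2 in control (difference -0.36, limma adjusted p = 0.379). Known targets of NRF2, like all genes tested, lay on both sides of control.

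Of 33 antioxidant enzymes not placed with the NRF2 targets, 27 were tested, 0 were DEGs in limma, 2 were lower and 2 higher at an unadjusted p under 0.05, and 18 means were higher and 9 lower, with a median difference of 0.10 that was 0.22 without sh-MFAP2 replicate 1. Of all genes tested, 42% had a higher mean, and 8.41% were lower and 3.89% higher at that p. In this list 9 genes lay higher and 2 lower in both knockdown libraries, where 17.5% and 31.4% of all genes tested did. MSRB1, a selenoprotein that repairs oxidised methionine, was at 20.7 and 21.1 FPKM after knockdown and at 6.98 and 6.33 in control. That was 3.14 times the control mean (difference 1.52, SE 0.11, limma adjusted p = 0.065), the smallest adjusted p of any gene in these lists. TXNIP, which binds and inhibits thioredoxin, was at 7.16 and 6.07 FPKM after knockdown and at 4.22 and 4.13 in control (difference 0.55, limma adjusted p = 0.337). CAT, the peroxisomal catalase, was at 21.5 and 22.2 after knockdown and at 28.2 and 29.3 in control, and OXR1 was likewise lower in both knockdown libraries (difference -0.35). GLRX, a glutaredoxin, was higher in both (difference 0.35, limma adjusted p = 0.406). TXNRD1 and MSRB1, both selenoproteins, thus lay on opposite sides of control.

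Of 28 genes of glutathione synthesis and turnover outside the members, 18 were tested and 0 were DEGs in limma. At an unadjusted p under 0.05, 8.41% of all genes tested were lower and 3.89% higher, and 1 gene of this list was higher. That gene was SLC1A5, a glutamine transporter, at 127 and 124 FPKM after knockdown and at 74.4 and 50.5 in control (difference 1.02, SE 0.22, limma adjusted p = 0.337). In this list 13 means were higher and 5 lower, where 42% of all genes tested had a higher mean. Both knockdown libraries lay above both controls in 8 genes and below them in 1, beside 17.5% and 31.4% of all genes tested. The median difference of 0.14 was 0.04 without sh-MFAP2 replicate 1, and it was 0.08 when control replicate 2 was left out. GGCT and GSS, which act in the turnover and in the second step of synthesis, had differences of 0.62 and 0.16, and SLC6A9, a glycine transporter, had 0.23.

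**Figure D4:**
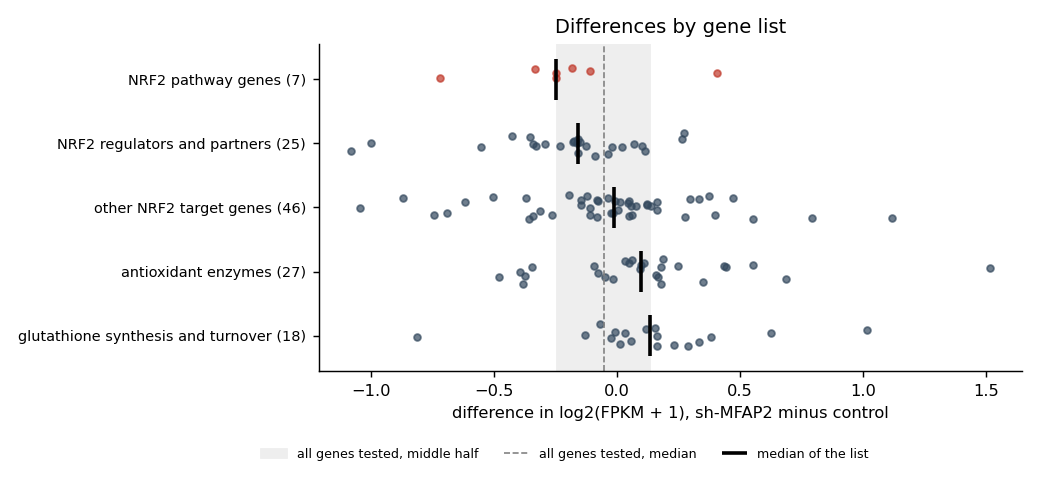
Difference between sh-MFAP2 and control in log2(FPKM + 1) for each tested gene of the 5 lists, with list sizes in brackets, a bar at each list's median, and the grey band and dashed line marking the quartiles (-0.24 to 0.13) and median of all genes tested. Medians run from -0.25 for the NRF2 pathway genes to 0.14 for glutathione synthesis and turnover, and each list has genes on both sides of 0.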

How the data were processed

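Total RNA from AGS cells gave 4 libraries, which the labels place in 2 groups of 2 (sh-MFAP2 and control). The authors made FPKM values from their reads and deposited them, 1 column per library, in a gene table and a transcript table. The unit is not named there and was inferred: values are not whole, sum to 184902 to 199814 per library and lie on steps of fragments over length. The transcript length in bases was deposited beside them. The submitters' processing notes name hg38, and the aligner, estimator, annotation and strand setting are not given in the sources used here. Of 1003 to 1061 low values per library, 52.5% to 55.4% fitted a whole number of fragments. With a finer step 65.2% to 66.7% of low values fitted, so the implied fragments may be too few. Counts could therefore not be rebuilt, no count test was run, and implied fragments are approximate.

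Values were put on the log2(FPKM + 1) scale, genes averaging under 1 FPKM were left out, and limma 3.58.1 (R 4.3.3; lmFit, then eBayes with trend) compared the groups over 9873 genes with p-values adjusted by Benjamini-Hochberg. Fold changes on this scale understate those of low genes. A DEG needed p under 0.01 and, after adjustment, under 0.05. Alternatives were other filters, a pseudocount of 0.1, quantile and median-of-ratios scaling, a replicate block, no trend, transcript sums and leaving out each library. Named genes were the 9 members with transcripts of at least 1 FPKM, MFAP2, DEGs and the 5 smallest p of each of 4 lists (some of these are not reported here), AKR1C2, AKR1C3, AKR1C4, SQSTM1, BACH1, CUL3, MAFG and the 3 genes nearest NFE2L2; FTL, GPX2, GSR, CDKN1A and CHAC2 were added after their values were seen. Members and lists were chosen with earlier results of these data known. Places and overlaps came from GENCODE 29 on GRCh38 and promoter windows from RefSeq. Scripts were tested on simulated data. Python 3.11.15 with Biopython 1.88, numpy 2.4.6 and pandas 2.3.3 read the tables, and matplotlib 3.10.9 drew the figures.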

Additional observations from a re-analysis of the deposited data

How the results depend on the processing

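The count of 27 DEGs among all genes tested depended on the settings. It was 6 with every gene above 0 admitted, 46 when only an adjusted p under 0.1 was asked, 9 with a mean of at least 5 FPKM, 0 with a replicate block and 0 to 0 when single libraries were left out, and it stayed within 1.5 times of 27 with the other settings. The number of member genes that were DEGs was 0 under each setting. Members with an unadjusted p under 0.05 numbered 2 with a pseudocount of 0.1, 2 without a variance trend and 1 to 2 with single libraries left out (2 without sh-MFAP2 replicate 2). The member median was -0.182 with every gene above 0 admitted, -0.177 under both quantile and median-of-ratios scaling, and -0.29 to -0.193 with libraries left out. The median of the other NRF2 targets was 0.007 with every gene above 0 admitted, 0.009 with a mean of at least 5 FPKM, 0.002 under quantile and 0.052 under median-of-ratios scaling, and -0.024 to 0.013 with libraries left out. SQSTM1 ranged from -0.15 (sh-MFAP2 replicate 2 left out) to 0.291 and was -0.137 without control replicate 2. The cause of these shifts was not tested. All 84 alternative values of the 7 tested members kept direction and call, as did 244 of 246 for the other named genes. In the settings above without any DEG, the call could not change. GCLM kept its direction at only -0.007 without sh-MFAP2 replicate 1.

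Over the 9873 genes tested, the difference of replicate 1 minus replicate 2 correlated between sh-MFAP2 and control at r = -0.0572. Which genes differed more between replicates was thus not shared between the groups as a whole. A correlation does not register a shift common to most genes. A value over all genes cannot show whether some genes shared a replicate effect, and a few genes did follow the replicate number (below). Whether the samples were paired was therefore not settled. The replicate block left 0 DEGs and 1 member, TXNRD1, at an unadjusted p under 0.05. With 2 libraries a group, moderate differences were not resolved, and AKR1C1, whose transcript sum went opposite to its gene value, and MFAP2 were limited by depth.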

Other observations

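Some genes of the pathway lists varied widely between libraries of the same group, and they were picked after their values were seen. FTL, the ferritin light chain and an NRF2 target, was at 3518 and 2292 FPKM after knockdown and at 5491 and 2116 in control. GPX2, the gastrointestinal glutathione peroxidase and an NRF2 target, was at 48.4 and 19.0 FPKM after knockdown and at 12.6 and 14.4 in control. GSR, the glutathione reductase, was at 13.0 and 19.2 FPKM after knockdown and at 22.9 and 38.6 in control. GPX2 was higher and GSR lower in both knockdown libraries, with limma adjusted p of 0.441 and 0.417. In both groups FTL was higher and GSR lower in replicate 1 than in replicate 2.

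In a few more genes the values followed the replicate number in both groups, as the NFE2L2 transcripts did. CDKN1A, the cell cycle inhibitor p21 that also binds NRF2, was at 25.2 and 77.0 FPKM after knockdown and at 23.8 and 70.7 in control. CHAC2, a glutathione-degrading cyclotransferase, was at 2.06 and 13.0 FPKM after knockdown and at 0.669 and 14.1 in control. LYZ, lysozyme, was at 85.5 and 579 FPKM after knockdown and at 89.3 and 369 in control.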
